A study of Mus musculus with 6 samples.

Results

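CpG-rich promoters of protein-coding genes were described from the accessible intervals (peaks) of an ATAC-Seq experiment in the mouse pre-T line Beko, in which Notch signaling is constitutively on. A peak was taken as a CpG-rich promoter when it was autosomal, held coding transcription start sites of 1 strand only, and reached over its whole length 0.6 in CpG observed/expected ratio and 50% in GC content. By this rule 6297 of 32527 peaks were CpG-rich promoters (19.4%). They made up 71.8% of the 8773 autosomal peaks with coding starts. The others were 1561 CpG-poor promoters, which missed a threshold, and 915 divergent promoters with coding starts on both strands. Of the 21418 autosomal coding genes, 6259 had a start in a CpG-rich promoter peak, which is 29.2% of them, and 78 of these genes had 2 or more such peaks.

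The 6 libraries came from 1 cell line, 3 from cells given the solvent DMSO for 24 h and 3 from cells given DAPT, a γ-secretase inhibitor (GSI), for 24 h. γ-Secretase frees the intracellular part of Notch from the membrane, so that the pathway is active in the DMSO cells and blocked in the GSI cells of the same line. The authors merged the peaks of both groups into 1 list of intervals without a value per library, so GSI against DMSO was not analysed here, and no value below has an error between libraries. Tests below are two-sided exact sign tests over the 19 autosomes, whose smallest possible p is 3.81e-06, and they measure the spread over chromosomes of 1 cell line.

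Most vertebrate DNA is poor in CpG dinucleotides, because methylated cytosine mutates readily, and the short stretches that escape this loss, CpG islands, cover the starts of most genes used in every cell and of many developmental regulators. Their promoters tend to stay unmethylated and nucleosome-depleted and often lack a TATA box. In ATAC-Seq a transposase inserts adapters into open DNA, so a peak marks where the chromatin could be reached. The cell type named in the labels was compared with defining markers at their coding starts. A promoter peak of any class lay at 7 of 9 T-cell markers, among them Cd3e, Lck and Rag1, but not at Cd3d or Bcl11b, and at 0 of 4 B-cell, 0 of 3 myeloid and 0 of 3 fibroblast markers, beside 43.8% of all coding genes. Only Tcf7 and Gata3, both T-lineage transcription factors, had a CpG-rich one among them.

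The sequences that follow show what these promoters look like. They give the sense strand of mm9, which reads like the RNA, from 200 bases before the start to 29 bases after it. The first 6 are the first genes, in the order of the gene lists, whose window held the motif in capitals and no annotated exon before the start. Rplp1, Rplp0, Rpl14, Rpl23a, Rplp2 and Rpl6 all encode proteins of the cytosolic ribosome. The capitals mark the ETS motif CCGGAAG in Rplp1, the NFY motif CCAAT in Rplp0, the YY1 motif ATGGCGG in Rpl14, the NRF1 motif GCATGCGC in Rpl23a, the motif ACTACAA of ZNF143 and THAP11 in Rplp2, and the RBPJ motif TGGGAA in Rpl6, each on either strand.
Rplp1 (chr9:61762316-61762545, minus strand): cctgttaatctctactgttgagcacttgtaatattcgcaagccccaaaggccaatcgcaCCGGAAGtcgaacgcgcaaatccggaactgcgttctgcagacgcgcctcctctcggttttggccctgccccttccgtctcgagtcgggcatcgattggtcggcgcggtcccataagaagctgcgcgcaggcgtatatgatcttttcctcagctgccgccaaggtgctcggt
Rplp0 (chr5:116009276-116009505, plus strand): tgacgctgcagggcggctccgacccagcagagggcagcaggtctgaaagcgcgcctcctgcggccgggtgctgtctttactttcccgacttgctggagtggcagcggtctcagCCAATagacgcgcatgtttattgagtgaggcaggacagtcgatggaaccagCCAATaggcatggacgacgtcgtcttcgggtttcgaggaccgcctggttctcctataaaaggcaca
Rpl14 (chr9:120480432-120480661, plus strand): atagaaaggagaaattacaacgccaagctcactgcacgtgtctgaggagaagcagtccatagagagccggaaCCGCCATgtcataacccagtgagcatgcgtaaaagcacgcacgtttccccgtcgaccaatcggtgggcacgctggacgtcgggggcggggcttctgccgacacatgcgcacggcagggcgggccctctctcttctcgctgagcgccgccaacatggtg
Rpl23a (chr11:77997057-77997286, minus strand): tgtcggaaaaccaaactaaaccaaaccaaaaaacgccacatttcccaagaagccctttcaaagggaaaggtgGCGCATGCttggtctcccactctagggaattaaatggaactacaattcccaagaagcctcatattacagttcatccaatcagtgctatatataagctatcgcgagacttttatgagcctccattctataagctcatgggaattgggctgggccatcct
Rplp2 (chr7:148633069-148633298, plus strand): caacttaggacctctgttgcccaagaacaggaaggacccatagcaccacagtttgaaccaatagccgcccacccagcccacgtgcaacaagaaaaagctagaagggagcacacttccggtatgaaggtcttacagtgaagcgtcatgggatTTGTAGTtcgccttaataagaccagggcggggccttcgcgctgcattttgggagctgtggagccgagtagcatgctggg
Rpl6 (chr5:121654290-121654519, plus strand): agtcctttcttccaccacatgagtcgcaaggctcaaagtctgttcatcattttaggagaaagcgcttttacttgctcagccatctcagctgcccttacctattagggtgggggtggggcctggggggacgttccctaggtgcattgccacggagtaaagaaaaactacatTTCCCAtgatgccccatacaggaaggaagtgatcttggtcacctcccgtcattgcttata
The matches began 141 bases before the start in Rplp1, 128 in Rpl14 and in Rpl23a, 49 in Rplp2 and 30 in Rpl6. Rplp0 held 2 CCAAT matches, 87 and 36 bases before the start. The Rplp0 window was also the first with the SP and KLF motif GGGCGG, 190 bases before the start, and with the TATA box letters TATAAA, which there lay 17 bases after it. The peaks themselves were 892 bp wide at Rplp1, 807 bp at Rplp0, 1318 bp at Rpl14, 627 bp at Rpl23a, 834 bp at Rplp2 and 828 bp at Rpl6.

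CpG-rich promoter peaks were wider than CpG-poor ones. Their median width was 930 bp (95% confidence interval from order statistics 923 to 939 bp, n = 6297) against 762 bp for CpG-poor promoters (743 to 778 bp, n = 1561) and 1021 bp for divergent promoters (1005 to 1034 bp, n = 915). Per autosome the CpG-rich median exceeded the CpG-poor one by 174 ± 42.4 bp (mean ± SD, n = 19 autosomes) and was higher on 19 of 19 autosomes (exact sign test, p = 3.81e-06). The CpG-rich minus divergent difference was -89.4 ± 33.8 bp, with 0 of 19 autosomes above 0 (exact sign test, p = 3.81e-06). The divergent class requires starts of both strands inside the peak, which a wider peak can more readily hold. Part of this difference may therefore be built into the rule. The middle of the distribution was tight, with quartiles at 761 and 1134 bp, and only 47 of the 6297 peaks (0.746%) were wider than 2000 bp. Peaks with more CpG were wider. By the number of CpG within 500 bp of the start, 4 groups of equal size were formed. From the first (20 to 57 CpG) to the last (91 to 177 CpG) the median width went from 774 to 1116 bp. Over all CpG-rich promoters the Spearman correlation of the 2 quantities was 0.44, given as a description of peaks that share 1 list. The rule asks for the CpG ratio and GC content over the whole peak, so part of this relation may be built in.

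**Figure D1:**
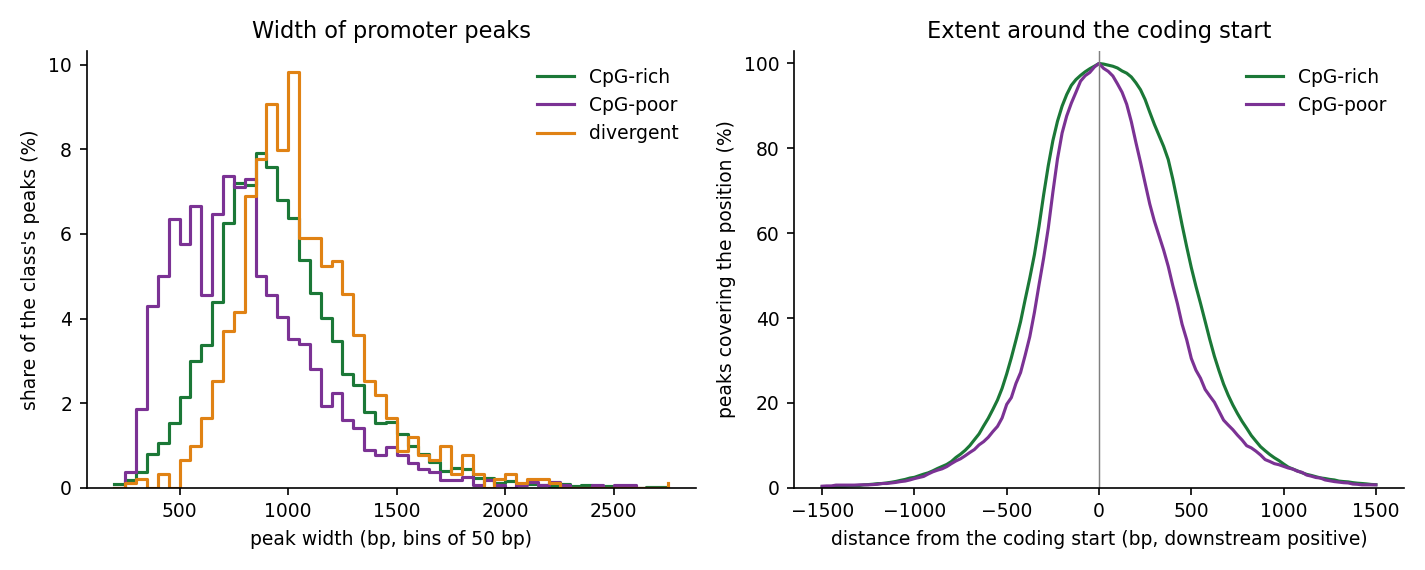
Left, the distribution of peak width in bp (50 bp bins) as a share of each class of promoter peak in percent. Right, the share of CpG-rich (green) and CpG-poor (purple) promoter peaks that cover each distance in bp from the coding start, with downstream positive. The CpG-rich widths lie between the CpG-poor and the divergent ones, and the CpG-rich curve is displaced towards the downstream side.

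The widest CpG-rich promoter peaks belonged to Nr3c1, the glucocorticoid receptor (2713 bp), E2f3, a cell cycle transcription factor (2685 bp), Zfp36l2, an RNA-binding protein of mRNA decay (2537 bp), Cdc14a, a phosphatase (2529 bp), and Hmga1, an architectural chromatin protein (2511 bp). The Nr3c1 peak, at chr18:39648736-39651448, held 6 distinct coding starts and 270 CpG and reached 2219 bp into the gene. The narrowest were those of the heme oxygenase Hmox2 (217 bp), 4931414P19Rik (227 bp), 2310046K01Rik (232 bp), the hydrolase Ggh (233 bp) and the nuclear NF-κB regulator Nfkbiz (240 bp). Hmox2 had a CpG ratio of 0.984 at 81.6% GC, and Nr3c1 one of 0.859 at 68.2%.

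CpG-rich promoter peaks were not centred on the coding start. From the start used by most coding transcripts, they reached a median of 510 bp into the gene and 372 bp upstream, and 66.5% reached farther downstream than upstream. The median paired difference was 129 ± 29.8 bp (mean ± SD, n = 19 autosomes), above 0 on 19 of 19 autosomes (exact sign test, p = 3.81e-06). In CpG-poor promoters 55.3% reached farther downstream. The downstream share of the width had a median of 57.4% in CpG-rich and 53.0% in CpG-poor promoters, a difference of 4.43 ± 3.77 percentage points that was above 0 on 14 of 19 autosomes and did not pass the exact sign test (p = 0.0636), while 4 of 7 alternatives, other ways to choose the peaks or the start or another test, passed it. With the class taken from the 250 bp on each side of the start the difference was 1.19 percentage points (exact sign test, p = 0.648). The downstream edge lay in intron 1 of the gene in 77.8% of the peaks and in exon 1 in 13.4%.

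The CpG islands themselves had the same orientation. Around 6238 of the 6297 starts a stretch of windows of 200 bp met the same thresholds, with a median length of 812 bp, and 81.4% of these stretches reached farther downstream than upstream. They passed the downstream edge of the peak in 53.1% and its upstream edge in 26.9% of promoters. The peak and the island had a Spearman correlation over promoters of 0.53 in upstream reach and of 0.38 in downstream reach, a description only, since both are set from the same start. The rule had also selected these peaks by the same thresholds over their whole length. A stretch at most starts was therefore largely built in, and so may be part of its likeness to the peak.

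Of the CpG-rich promoter peaks 52.6% held 1 distinct coding start, against 59.6% of the CpG-poor ones. Starts of 2 or more genes lay in 41 CpG-rich promoter peaks (0.651%). The median width was 914 bp with 1 start and 1005 bp with 4 or more. Starts were counted inside the peak, so a wider peak can take in more of them. Odf2, a centriole and sperm tail protein, and Rcbtb2 had 13 distinct coding starts in 1 peak, and 1700029F09Rik had 12. Kdm2b, a histone demethylase that binds unmethylated CpG, was the one gene with 3 CpG-rich promoter peaks, of 864, 496 and 496 bp, the latter pair 210 bp apart.

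The surroundings of CpG-rich and CpG-poor promoters differed. A further peak lay within 5 kb of 21.2% of CpG-rich and 30.6% of CpG-poor promoter peaks, a difference of -9.43 ± 6.58 percentage points (mean ± SD, n = 19 autosomes), above 0 on 2 of 19 autosomes (exact sign test, p = 7.29e-04). For CpG-rich promoters the neighbour lay upstream in 14.0% and downstream in 8.97%. CpG-poor promoters also had it more often upstream, in 18.8%, than downstream, in 15.4%. Opposite-strand starts were also counted for genes annotated as any type other than protein-coding. Such a start lay in 442 CpG-rich promoter peaks (7.02%) and in 3.65% of CpG-poor ones. The share was higher in the CpG-rich class by 2.89 ± 2.34 percentage points and on 18 of 19 autosomes (exact sign test, p = 7.63e-05). Peak width differed between the classes too, also among peaks of at least 500 bp, by 125 bp, where the difference in this share was 2.19 percentage points (exact sign test, p = 0.00443), and its part in the result was not tested.

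Which CpG-rich coding starts were open was asked next, over 1 start per gene with the class taken from the sequence within 500 bp of it and starts with an opposite coding start in that window left out. Of 7946 CpG-rich starts, 5531 lay inside a peak, which is 69.6% (95% Wilson interval 68.6 to 70.6%). Of 11446 CpG-poor starts 13.7% did (13.1 to 14.4%). The difference was 55.1 ± 5.63 percentage points (mean ± SD, n = 19 autosomes) and was above 0 on 19 of 19 autosomes (exact sign test, p = 3.81e-06). A further 190 CpG-rich starts had a peak in the window but not over the start, and 2225 had none. The share differed most between ratios below the threshold of the rule, going from 1.94% at a ratio under 0.1 to 42.9% between 0.5 and 0.6, 57.7% between 0.6 and 0.7 and 76.1% between 0.9 and 1. With GC content it went the other way, from 76.8% of CpG-rich starts at 50 to 55% GC to 63.4% at 70% GC or more.

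**Figure D2:**
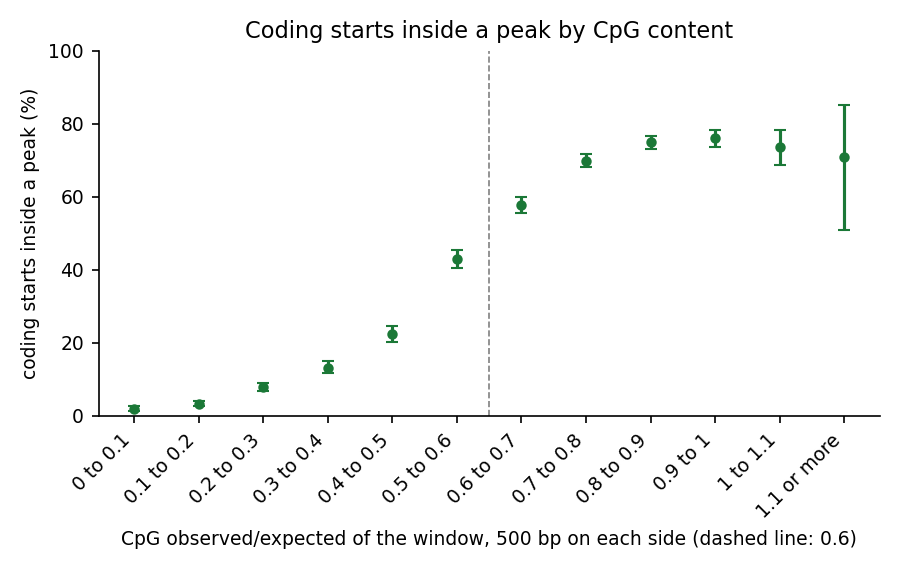
Share of coding starts inside a peak in percent, by the CpG observed/expected ratio within 500 bp of the start (bars, 95% Wilson intervals, which cover counting error only). The share climbs from 1.94 to 42.9% below the dashed line at 0.6 and stays between 57.7 and 76.1% above it.

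Sequence motifs were compared between the open starts and the 2225 closed CpG-rich starts, from 200 bp before to 100 bp after the start on both strands. Of 17 motifs, 11 were more frequent at open starts, 1 was less frequent and 5 did not pass (exact sign test over autosomes, Benjamini-Hochberg over the 17). No motif of the 17 holds another one on either strand. The ETS motif CCGGAAG, the site of a family that includes GABPA and Ets1, differed most. It lay in 22.5% of open and 5.62% of closed starts, a difference of 17.3 ± 3.12 percentage points with 19 of 19 autosomes above 0 (exact sign test, adjusted p = 1.62e-05), and in 11.3% of all 21382 coding starts. YY1 letters (ATGGCGG) followed the same pattern with 12.9 against 4.99% (exact sign test, adjusted p = 1.62e-05; 6.33% of all starts), as did NFY (CCAAT), the CCAAT-box factor, with 37.4 against 29.2% (36.5% of all starts).

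Smaller shares separated the other motifs. NRF1 (GCATGCGC), a regulator of mitochondrial genes, had 6.65 against 4.09% (3.35% of all starts), ACTACAA of ZNF143 and THAP11 4.10 against 1.71% (3.58%), and the CREB and ATF site TGACGTCA 4.16 against 2.16% (2.25%). The E2F site TTCCCGCC had 5.75 against 4.09% (2.90%), the palindrome CTCGCGAG 2.73 against 1.30% (1.18%), and the MYC and USF E-box CACGTG 11.3 against 9.39% (7.53%). GGGCGG, the GC box of SP and KLF factors, was common in both, with 78.0 and 74.4% (45.6%). TATAAA was the motif less frequent at open starts, with 4.28 against 5.98% (12.1%). Of the RBPJ motifs, TGGGAA lay in 18.01% of open and 16.9% of closed starts (23.2% of all starts), 1.14 ± 3.76 percentage points apart with 11 of 19 autosomes above 0 (exact sign test, adjusted p = 0.688), and TGAGAA in 10.6 and 9.08% (18.4%, adjusted p = 0.00752, exact sign test). CAGCTG, bound by E-proteins (16.5% of all starts), the RUNX motif TGTGGTT (4.94%), the AP-1 motif TGAGTCA (4.12%) and the GATA motif AGATAA (8.99%) did not pass.

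Open and closed starts differed in composition too, with a median CpG ratio of 0.797 against 0.758 and a median GC content of 61.4 against 63.1%. All 8 motifs that hold a CG were among the 11. Within windows of 60 to 70% GC 7 motifs were more frequent at open starts and 0 less frequent, and with thresholds of 0.75 and 55% also 7 and 0. The ETS, YY1 and NRF1 motifs and the palindrome passed in the same direction under each of 6 alternatives. SP and KLF, NFY, MYC and USF, E2F, CREB and ATF, ZNF143, TGAGAA and TATAAA lost the call under 1 to 4 of them. For TATAAA and TGAGAA the direction turned with another window length. From 500 bp before to 500 bp after the start TATAAA was more frequent at open starts, by 1.40 percentage points (exact sign test, adjusted p = 0.0327).

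**Figure D3:**
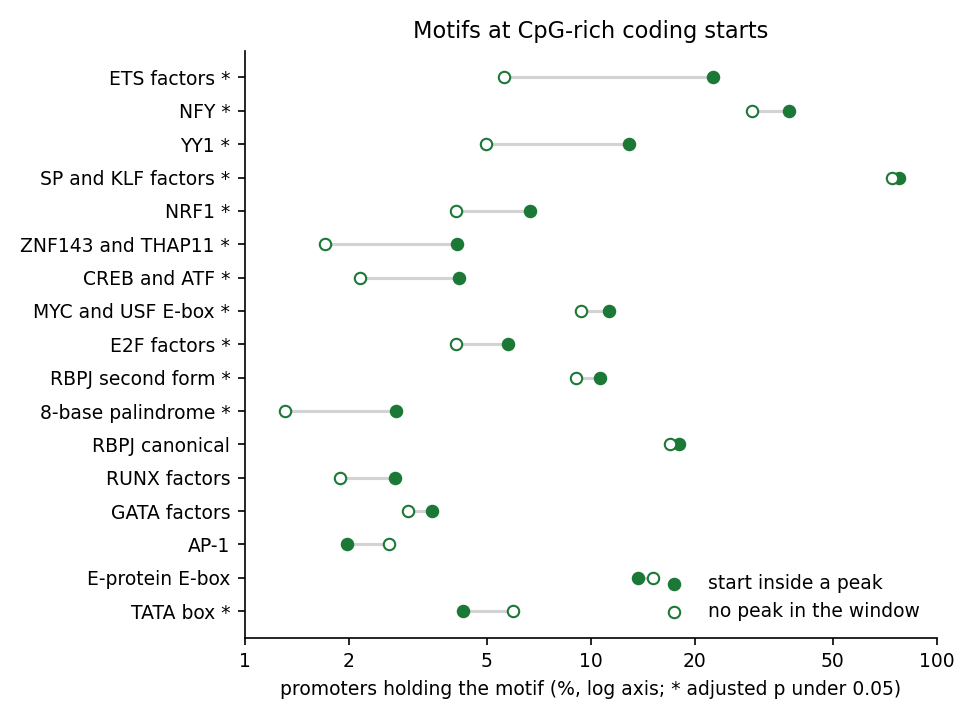
Share of CpG-rich coding starts in percent (log axis) that hold each motif, for starts inside a peak (filled) and starts with no peak within 500 bp (open circles). An asterisk marks an adjusted p under 0.05. The widest gap is that of ETS factors, 22.5 against 5.62%.

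Within CpG-rich promoter peaks several of these motifs had preferred places. In bins of 20 bp, GGGCGG was densest from 60 to 40 bp before the start, with 1488 matches over 6297 peaks, and CCAAT from 80 to 60 bp before it, with 457. CCGGAAG peaked over the first 20 bp of the transcript with 283 matches, 12.5 times its density more than 300 bp away, and GCATGCGC over the last 20 bp before the start, 16.5 times its density there. These 4 motifs occurred about as often as spelled as on the other strand in those bins, for example 155 and 128 times for CCGGAAG. No such place was seen for the RBPJ motifs, with a fullest bin of 1.21 times the density beyond 300 bp for TGGGAA and of 1.46 times for TGAGAA.

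Matches of ATGGCGG and, close to the start, of TATAAA were oriented. In the 60 bp after the start GGGCGG was unequal too, with 1314 matches as spelled and 723 on the other strand. TGGGAA had 134 and 81 there, and CCAAT, the other way, 131 and 195. ATGGCGG was densest 20 to 40 bp into the transcript, 172 times as spelled and 40 times on the other strand. In the 60 bp before the start the counts were 37 and 41. Matches on the other strand rose as well, to 100 in the 60 bp after the start. ATGGCGG opens with the letters of a start codon. Of the 350 matches as spelled in the first 60 bp, 243 (69.4%) began at an annotated start codon of a coding transcript. TATAAA lay 40 to 20 bp before the start, the usual place of a TATA box, 41 times as spelled and 11 times reversed. Its fullest bin, however, lay 420 to 400 bp before the start, with 44 matches as spelled and 48 reversed.

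The next 4 sequences, cut as above, show matches in these bins and were chosen after the values were seen. They are Notch1, the main Notch receptor of T-cell progenitors, with GGGCGG in capitals on both strands, the ribosomal gene Rpl11 with the ETS motif at the start, 1200011M11Rik with ATGGCGG, and Azin1, a regulator of polyamine synthesis, with TATAAA.
Notch1 (chr2:26359313-26359542, minus strand): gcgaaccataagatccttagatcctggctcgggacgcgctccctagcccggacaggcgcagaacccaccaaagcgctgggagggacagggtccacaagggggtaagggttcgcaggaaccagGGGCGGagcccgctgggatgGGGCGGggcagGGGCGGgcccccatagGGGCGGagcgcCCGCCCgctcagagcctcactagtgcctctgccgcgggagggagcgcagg
Rpl11 (chr4:135609279-135609508, minus strand): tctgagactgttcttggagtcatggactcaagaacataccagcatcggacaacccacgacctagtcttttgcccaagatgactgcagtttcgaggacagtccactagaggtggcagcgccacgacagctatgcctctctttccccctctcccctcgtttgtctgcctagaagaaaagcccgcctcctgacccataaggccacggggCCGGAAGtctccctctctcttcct
1200011M11Rik (chr11:86900247-86900476, minus strand): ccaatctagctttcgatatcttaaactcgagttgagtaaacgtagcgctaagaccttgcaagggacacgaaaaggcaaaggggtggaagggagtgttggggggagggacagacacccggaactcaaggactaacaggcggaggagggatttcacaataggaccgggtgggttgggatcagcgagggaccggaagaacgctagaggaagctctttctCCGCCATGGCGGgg
Azin1 (chr15:38448992-38449221, minus strand): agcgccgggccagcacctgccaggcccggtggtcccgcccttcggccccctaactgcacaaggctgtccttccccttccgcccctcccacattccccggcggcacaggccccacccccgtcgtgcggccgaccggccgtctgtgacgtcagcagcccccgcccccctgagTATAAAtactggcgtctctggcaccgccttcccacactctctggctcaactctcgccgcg
Notch1 held 5 GC boxes, which began 78, 58, 47, 31 and 20 bases before the start. In Rpl11 the match began 6 bases after the start, in 1200011M11Rik 2 overlapping matches on opposite strands began 16 and 21 bases after it, and in Azin1 TATAAA began 30 bases before it.

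**Figure D4:**
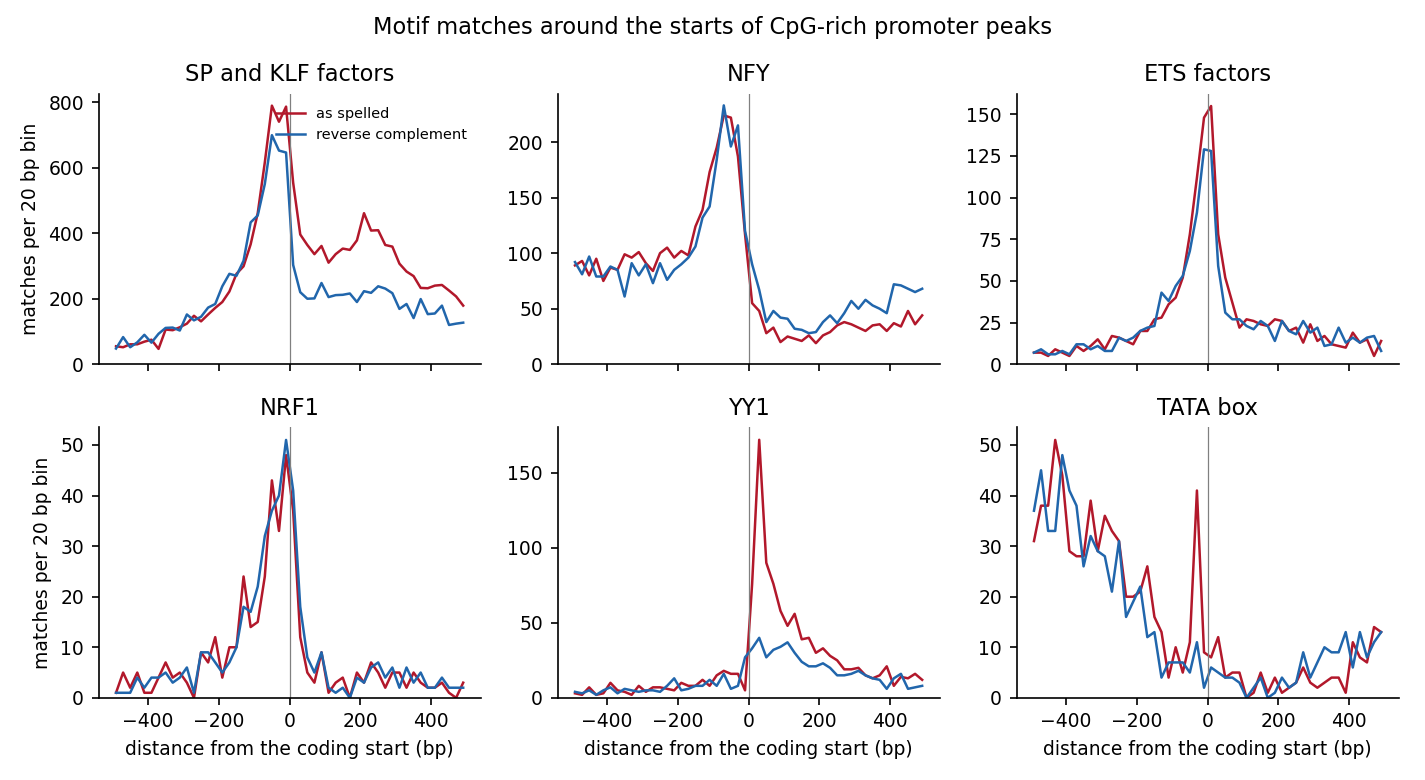
Number of matches per 20 bp bin against distance in bp from the coding start in the 6297 CpG-rich promoter peaks, for matches as spelled (red) and as the reverse complement (blue). ATGGCGG, labelled YY1, rises after the start, to 172 matches on the red line, and less on the blue one, with 40 in that bin. TATAAA has a narrow red spike of 41 matches before the start, beside counts of like height on both lines more than 400 bp upstream.

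Between CpG-rich and CpG-poor promoter peaks the motif shares split by whether the motif holds a CG, which the rule selects for, so they are given as a description. All 8 motifs with a CG were more frequent in CpG-rich peaks, for example GGGCGG with 76.8 against 46.9% and CCGGAAG with 22.0 against 12.4%. With thresholds of 0.75 and 55% the difference for CCGGAAG went from 10.2 to 1.67 percentage points, that for TGACGTCA from 2.10 to 1.18 and that for CACGTG from 3.84 to 1.52. Of the 9 motifs without one, 7 were less frequent, among them CAGCTG with 13.8 against 23.1%, TGTGGTT with 2.70 against 8.20% and TGGGAA with 18.5 against 27.3%. CCAAT, with 36.8 and 37.7%, and ACTACAA, with 4.05 and 4.74%, lay close together.

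The genes behind the promoters were read through 11 lists, each count to be set beside the 29.2% of all coding genes with a CpG-rich promoter peak and, for CpG-rich starts, the 69.6% inside a peak. The lists of basic cell functions lay above it. A CpG-rich promoter peak was found at 51 of 73 genes of cytosolic ribosomal proteins (69.9%), at 25 of 31 proteasome subunits (80.6%), which degrade tagged proteins, at 20 of 34 subunits of respiratory complex I (58.8%) and at 24 of 39 DNA replication factors (61.5%). A divergent peak served a further 12 ribosomal, 6 proteasome, 9 complex I and 12 replication genes, beside 8.18% of all coding genes. Glycolysis was mixed, with 11 of 25 enzymes (44.0%), among them Ldha (1882 bp wide), Gapdh (1154 bp) and Aldoa (1080 bp), all 3 at starts other than the one most transcripts use, while Tpi1, Hk1, Pfkm and Ldhb had CpG-poor promoter peaks. Of the CpG-rich starts in the first 4 lists 109 of 117 lay inside a peak.

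Not every gene needed in dividing cells had one. Of the 177 genes in those 4 lists 14 had no peak at a coding start, and 12 of these had a CpG-rich window. They include the ribosomal genes Rpl3 and Rps21, the replication clamp Pcna, whose nearest peak was 5153 bp away, and the helicase subunit Mcm4, with 42629 bp. The nearest peak to these 12 starts was between 153 bp (Rpl35) and 42629 bp away. Expression was not analysed here.

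**Figure D5:**
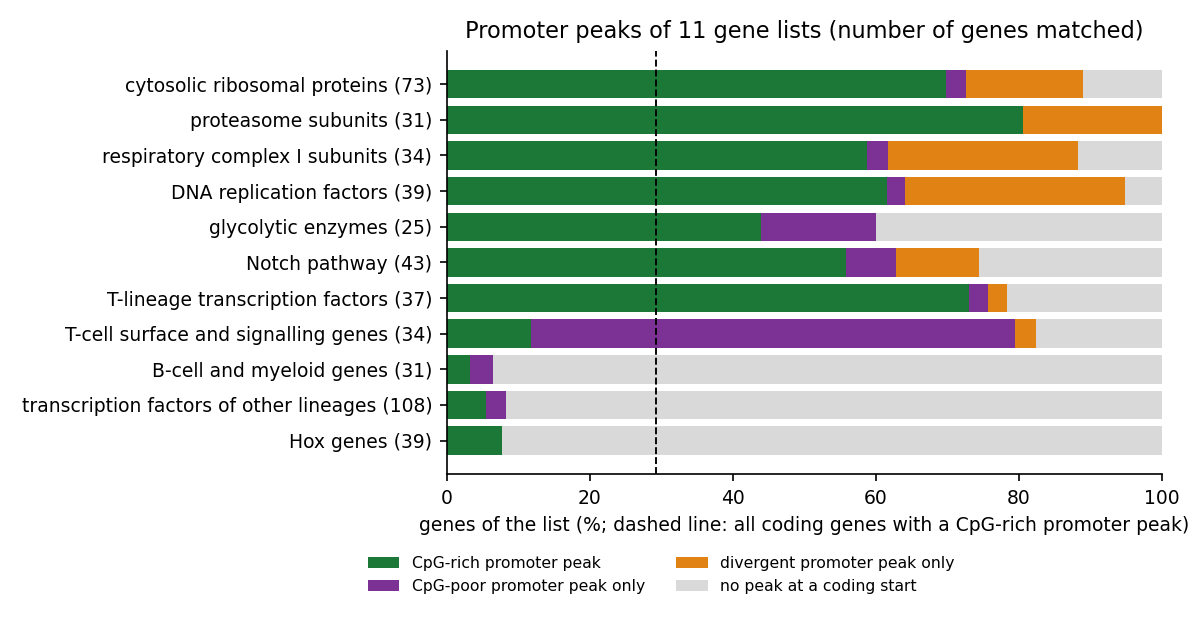
Share of the matched genes of each list in percent that had a CpG-rich promoter peak (green), only a CpG-poor (purple) or only a divergent one (orange), or no peak at a coding start (grey). The dashed line is the 29.2% of all autosomal coding genes with a CpG-rich promoter peak, which 7 lists exceed and 4 do not reach.

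Of the Notch pathway 24 of 43 genes (55.8%) had a CpG-rich promoter peak, with a median width of 1011 bp. Of its 25 CpG-rich starts 18 (72.0%) lay inside a peak, close to the 69.6% of all CpG-rich starts. Receptors Notch1 (623 bp), Notch2 (940 bp) and Notch3 (268 bp) had one, while Notch4 and the ligands Dll1, Dll3, Dll4, Jag1 and Jag2 had no peak at a coding start. Rbpj itself, the DNA-binding factor of the pathway, had at a start other than the one most transcripts use a peak of 1889 bp at chr5:53980087-53981975 with 170 CpG, which reached 1367 bp upstream and 521 bp into the gene. The coactivators Maml1 (1173 bp), Maml3 (349 bp) and Ep300 (1520 bp), a histone acetyltransferase, and the corepressors Spen (1318 bp) and Ncor1 (1400 bp) followed. Of the enzymes that cut the receptor, Adam10 (1141 bp), Adam17, Psen2 (955 bp, also at another start) and Aph1a (701 bp) had CpG-rich promoters, whereas the γ-secretase subunits Ncstn and Psenen had divergent ones.

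The known targets of Notch in the list differed among themselves. Nrarp, a feedback inhibitor, had a peak of 1506 bp, of which 77.1% lay downstream of the start. Hey1, a transcriptional repressor, had one of 1172 bp with only 16.7% downstream, and Heyl, its relative, one of 436 bp. Dtx1, a ubiquitin ligase, had 1356 bp, 94.5% of it downstream. Hes1, a repressor and much used Notch target, had a CpG-poor promoter peak, and Hes5 and Hey2 had none. Some loci had been picked out by the authors as examples of static or dynamic RBPJ binding, that is, binding kept or reduced under GSI. CpG-rich promoters were found at 7 of these 9 loci, beside 29.2% of all coding genes. Those besides Hey1, Notch3 and Dtx1 were Gm266 (742 bp), Lgmn, a lysosomal protease (638 bp), Dennd2d (578 bp) and Sufu, an inhibitor of Hedgehog signaling (700 bp). TGGGAA lay in 4 of these 7 peaks, 3 times in Hey1, 2 times in Gm266 and 1 time each in Lgmn and Notch3, and in Dennd2d, Sufu and Dtx1 0 times, while 48.6% of all CpG-rich promoter peaks held it over their whole length. By primer name, the sites that the authors assayed at Gm266, Dennd2d and Dtx1 lay kilobases from the gene start. Those assayed at Lgmn and Sufu lay close to it. Counts in the promoter peaks do not describe the distant sites at Gm266, Dennd2d and Dtx1.

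Transcription factors of the T lineage had 26 CpG-rich starts, of which 21 (80.8%) lay inside a peak, beside 69.6% of all CpG-rich starts. A CpG-rich promoter peak was found at 27 of the 37 genes (73.0%), with a median width of 1025 bp. The widest was Runx1 (2301 bp), which controls early blood and T-cell development and reached 1717 bp upstream of its start, followed by Egr1 (1868 bp), Foxp1 (1777 bp, at another start) and Tox (1683 bp). Runx3 had the narrowest with 292 bp. Gata3 (996 bp), Tcf7 (722 bp), Myb (1236 bp), Ets1 (858 bp) and Fli1 (1524 bp) had 1 each, and Ikzf1, Satb1, Tcf4 and Myc had 2 each, which in Ikzf1 lay 193 bp apart. Lef1, Bcl11b and Id3, which act in the same lineage, had no peak at a coding start, although Bcl11b had one 327 bp and Id3 one 48 bp from the start.

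Surface and signalling genes of T cells differed from these factors in class. Their list had 2 CpG-rich starts, and both lay inside a peak. Of 34 T-cell surface and signalling genes 4 (11.8%) had a CpG-rich promoter peak, namely the kinases Fyn (1243 bp) and Prkcq (629 bp), the phospholipase Plcg1 (1070 bp) and the transcription factor Nfkb1. For Fyn and Nfkb1 it lay at a start other than the one most transcripts use. CpG-poor promoter peaks lay at 23 of the 34, beside 6.42% of all coding genes, among them Cd3e, Cd3g, Lck, Zap70, Cd4, Cd5, Rag1 and Thy1. In 31 B-cell and myeloid genes 1 CpG-rich promoter peak was found, at Cebpb (1013 bp), a factor also used outside myeloid cells.

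Closed CpG-rich promoters were frequent among developmental regulators. Of 108 transcription factors of other lineages 72 had a CpG-rich start, and 4 of these 72 (5.56%) lay inside a peak, against 69.6% of all CpG-rich starts. Of 21 CpG-rich Hox starts 2 lay inside one. Among the starts inside a peak were those of Dlx2 (756 bp), Tbx3 (456 bp) and Hmx2 (444 bp), and of Hoxa7 (295 bp) and Hoxa13 (519 bp). Lhx2 (1119 bp), Dlx1 (1530 bp) and Hoxd8 (1401 bp) had a CpG-rich promoter peak at another coding start. The genes named here encode homeobox factors except Tbx3, a T-box factor. The low shares belong to lists chosen with earlier results of these data known, and no test was made of them.

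Members close to the thresholds show what the rule separates. At the CpG ratio, Chst14 (0.600457) and Tmem120b (0.600657) were just inside and BC057079 (0.599961) and Tex9 (0.599883) just outside. At the GC content, Zfp512 (50%) and Mnat1 (50.1%) were just inside and Mdp1 (49.95%) and 4833442J19Rik (49.8%) just outside. The peaks inside were 478, 1426, 684 and 673 bp wide, and those outside 962, 854, 1003 and 711 bp. Along the genome the autosomes carried 2.59 ± 0.801 CpG-rich promoter peaks per Mb (mean ± SD, n = 19), from 1.68 to 4.82, and the median width per autosome stayed between 898 and 959 bp.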

How the data were processed

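ATAC-Seq was done by the authors with a commercial kit on 6 libraries. As the study's methods and labels describe, reads were aligned to mm9 with HISAT2 2.2.1, duplicates were removed with Picard, peaks were called with MACS2 without an input, and peaks found in at least 3 libraries were kept. The list was deposited as chromosome, start and end in bp, and the deposited score is 0 for every peak, so it was not used. Read depth per library was not used here, and its effect on which peaks were called was not tested. A rule of 3 libraries can keep peaks of 1 group.

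Starts were counted from 0 in the file and are printed counted from 1. Composition, motifs and sequences were read from NCBIM37, the same build, and coding starts (gene and transcript of type protein_coding) from GENCODE vM1. The start of a peak or gene is the one shared by most coding transcripts, ties going to the most upstream. Analyses used Python 3.11.15, numpy 2.4.6, scipy 1.17.1 and matplotlib 3.10.9, and were tested on simulated data. Intervals of shares are 95% Wilson intervals. Differences per autosome were tested by exact sign tests with a threshold of 0.05.

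The class, the gene lists, the motifs and the rule for named genes were chosen with earlier results of these data known. Named are the study's example loci, the 5 widest and 5 narrowest peaks, the 3 with most coding starts, genes with 3 or more peaks, members of the Notch, T-lineage, other-lineage, Hox, B-cell and myeloid lists, and the peaks nearest each threshold. Other genes of the lists were named after their values were seen. Some genes of the lists enter the counts but are not reported here by name.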

Additional observations from a re-analysis of the deposited data

How the results depend on the processing

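Of 62 recomputed values of the main results, 54 kept their direction and their side of the threshold, or for counts lay within 1.5 times. Stricter thresholds of 0.75 and 55% left 4052 CpG-rich promoter peaks, 117 listed genes with one in place of 196, and 7 motifs past the threshold between open and closed starts. Windows of 60 to 70% GC also left 7. The downstream share of the width, CpG-rich minus CpG-poor, passed with the exact Wilcoxon signed-rank test (4.43 percentage points, p = 5.23e-04), with the most upstream coding start (4.07), with peaks of 1 distinct coding start (5.00) and with peaks within 1 kb joined (3.91), and was 1.19 with the class from the 250 bp on each side of the start (exact sign test, p = 0.648), 1.74 for peaks of at least 500 bp (p = 0.167) and 2.48 at the stricter thresholds (p = 0.0636). With the class taken from the 250 bp on each side of the start the width difference was 203 bp. Of 154 values for single motifs and lists, 22 lost the call, 5 counts moved, and 2 reversed, TATAAA to 1.40 percentage points in the window of 500 bp on each side and TGAGAA to -0.25 from 100 bp before to 50 bp after the start. The causes were not tested. An alternative added after seeing the data, any coding start of the gene in a peak, gave a difference of 52.2 percentage points between CpG-rich and CpG-poor starts. No paired analysis was possible because peaks carry no value for any single library.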

Other observations

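The share of CpG-rich coding starts inside a peak was 69.1 ± 4.91% over the autosomes (mean ± SD, n = 19), from 60.6 to 79.2%, and that of CpG-poor starts 13.9 ± 2.72%, from 8.24 to 18.5%, so that the ranges did not overlap. Among divergent promoter peaks 855 of 915 (93.4%) met the CpG thresholds as well, and 15.2% of them had a further peak within 5 kb.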
